A study of Homo sapiens with 4 samples.

Results

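The genes described here are 9 components and regulators of the complement system, taken by symbol from a list. They are C3, CFI, CFB, C1R, C1S, SERPING1, CD46, CD55 and CD59. This list and the other gene lists below were chosen with earlier results of these data known, so counts of their genes called are descriptions. All 9 matched a gene identifier, out of 57820 in the files, and all 9 passed the filter on low counts that left 17024 genes for testing. Daoy cells, a long-established line from a human medulloblastoma (a cerebellar tumour), supplied the RNA, which was poly(A)-selected and sequenced. Of 4 libraries, 1 was labelled ARID1B shRNA, from polyclonal cells carrying a short hairpin RNA against ARID1B in the inducible lentiviral vector tet-pLKO-puro. The other 3 were labelled wild type, and by the design text these controls include cells with the empty vector and parental cells, but no label tells them apart. The labels give every library the same treatment, doxycycline at 1 µg/ml for 72 h.

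Complement is a cascade of plasma proteases that tags surfaces with fragments of C3 and can end in a pore through the membrane. C1R and C1S are the proteases of the C1 complex, which starts the classical pathway, and CFB supplies the protease of the alternative pathway's C3 convertase. Host cells limit the cascade with soluble inhibitors such as SERPING1 (C1 inhibitor) and the protease CFI (factor I), and with membrane proteins. Among the membrane proteins, CD46 is a cofactor for CFI, CD55 takes convertases apart, and CD59 blocks the pore. The liver makes most plasma complement, and many other cells, glia and tumour cells among them, make some components locally.

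Gene-assigned reads numbered 8792848 in the library labelled ARID1B shRNA, against 12619786 to 15390106 in the wild-type libraries. Values are CPM, a count divided by the library total and scaled up, with TMM, a factor that aligns the bulk of genes between libraries. The shRNA arm has 1 library, so wild type alone supplies the spread in every test. No label ties its libraries to separate cultures, and p-values then measure only the spread between these libraries, which may be technical. That spread also pools empty-vector and parental cells as 1 group, since no label tells them apart. ARID1B itself was not lower in the library that carries its name, at 175 CPM, against 164, 88.0 and 72.9 CPM in wild type (log2 fold change 0.69, SE 0.46, edgeR adjusted p = 0.399). Without wild-type library 1 it was called higher (1.12, edgeR adjusted p = 0.0239), and with a trend on GC content and length removed its log2 fold change was -0.18. Every direction below is therefore one of the library labelled ARID1B shRNA and is not tied to lowered ARID1B mRNA. Of 12 neural and medulloblastoma markers 9 were tested, and ATOH1 had 0 counts in every library. Log2 fold changes were negative for 6 of the 9 and positive for 3, with a median of -0.60. In the library labelled ARID1B shRNA, 4 of the 9 lay below every wild-type library (SOX2, PTCH1, OTX2 and MYCN) and 2 above. Of all tested genes, 37.9% lay below and 35.4% above. The summed level of those 12 markers was 87.5 CPM in the library labelled ARID1B shRNA and 68.3 to 101 CPM in wild type. Among them ZIC2 was called higher, at 24.8 CPM there against 8.93, 10.6 and 8.14 CPM in wild type (edgeR adjusted p = 0.043). That call ended with upper-quartile scaling (0.0522), with the trend removed (0.220), and without wild-type library 2 (0.0615) or 3 (0.0959). The 6 mesenchymal markers summed to 15257 CPM there and 25323 to 32379 CPM in wild type, and FN1 made up most of that sum (10750 CPM there against 18932 to 26801 CPM). Of the 6, VIM was called lower (log2 fold change -1.42, edgeR adjusted p = 0.0213; 0.0547 without wild-type library 2), and COL1A1 lay inside the wild-type range (log2 fold change 0.35, and -0.73 with the trend removed). Blood markers summed to 2.28 CPM there and 4.66 to 11.3 CPM in wild type, with AIF1 and CD3E at 0 counts in every library. CSF1R made up most of that sum, at 1.71 CPM there against 4.19, 9.89 and 5.47 CPM in wild type, and was not called. Hepatocyte markers summed to 22.5 CPM there and 26.2 to 66.6 CPM in wild type, and apart from SERPINA1 each had at most 2 counts in any library. The part of these differences in the results was not tested.

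The results turn on CD55, the single gene of the 9 that passed the test, and on CFB, one of the genes that varied most between wild-type libraries. For these genes the promoter letters are printed, as the 250 bases before the annotated start of CD55, of CD46, a related regulator on the same chromosome, and of CFB. They come from RefSeq on GRCh38.p14, at chr1:207321428-207321677, chr1:207751788-207752037 and chr6:31945845-31946094, all on the plus strand. Capitals in CD55 and CD46 mark TGACG, the core of the cyclic AMP response element, and GGGCGG, the GC box that Sp1 binds, each on either strand. Capitals in CFB mark, in order, the interferon-stimulated response element (here on the opposite strand), TTCNNNGAA (the gamma-activated site of STAT factors) and TATAAA.
CD55: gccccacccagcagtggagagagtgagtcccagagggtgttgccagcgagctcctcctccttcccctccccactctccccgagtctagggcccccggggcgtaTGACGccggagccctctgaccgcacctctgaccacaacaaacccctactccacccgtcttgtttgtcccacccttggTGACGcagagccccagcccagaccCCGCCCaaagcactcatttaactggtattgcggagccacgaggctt
CD46: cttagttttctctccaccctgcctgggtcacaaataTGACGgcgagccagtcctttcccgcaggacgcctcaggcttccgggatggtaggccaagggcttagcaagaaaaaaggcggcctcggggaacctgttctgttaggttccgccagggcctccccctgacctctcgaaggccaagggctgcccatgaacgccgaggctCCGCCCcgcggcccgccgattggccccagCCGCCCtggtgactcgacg
CFB: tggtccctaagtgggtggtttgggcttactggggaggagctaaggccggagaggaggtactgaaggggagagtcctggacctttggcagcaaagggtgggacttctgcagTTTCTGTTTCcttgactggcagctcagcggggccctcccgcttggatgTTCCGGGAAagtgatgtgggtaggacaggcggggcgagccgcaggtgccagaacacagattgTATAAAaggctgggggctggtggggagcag

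CD55 held TGACG at 147 and 70 bases before its start and a GC box at 46 bases, and none of these matches overlap. CD46 held TGACG at 214 bases and GC boxes at 48 and 19 bases. Among 35116 RefSeq promoters of that length TGACG occurred in 21.2% and the GC box in 42.6%, so both are common. The full palindrome TGACGTCA, in 1.65% of promoters, and the amino acid response element TGATGNAA, in 3.14%, were in none of the 6 of 9 genes that the RefSeq table holds. CFB held its interferon element at 140 bases, its gamma-activated site at 92 and its TATA match at 30. Those motifs were in 3.02%, 6.57% and 10.7% of promoters. A plain form of the NF-kB site, found in 5.67% of promoters, was in none of the 6. CD59 held a gamma-activated site at 128 bases, and C1R held TTGCNNAA (C/EBP, in 9.05% of promoters) at 106 bases and TGACG at 19. CFI had none of the motifs searched, and promoters of C3, C1S and SERPING1 are not used here. A match is a description of the letters in this window.

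Levels of different genes were set side by side per kilobase of the longest annotated transcript. That transcript has 7826 nt for CD46, 7631 nt for CD59 and 2892 nt for CD55. Which transcripts Daoy cells express was not tested, and the order of genes depends on the lengths taken. On this scale C3, CD59 and C1S led in wild type. Their levels there were 57.01 ± 46.4, 40.8 ± 4.71 and 38.8 ± 14.1 CPM per kb (SD, n = 3). CD46 and CD55 followed at 27.3 ± 2.21 and 23.6 ± 2.90 CPM per kb, then CFI at 13.03 ± 6.31 and C1R at 10.3 ± 2.70. SERPING1 at 3.98 ± 1.03 and CFB at 1.51 ± 0.868 CPM per kb were lowest. Neighbours in this order overlapped within their spread from C3 to CD55 and between CFI and C1R. In the library labelled ARID1B shRNA CD55 led instead, at 57.6 CPM per kb, ahead of CD59 at 42.8 and C3 at 40.5. In CPM, not divided by length, CD59 led in that library at 326, ahead of C3 at 213 and CD55 at 167.

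**Figure D1:**
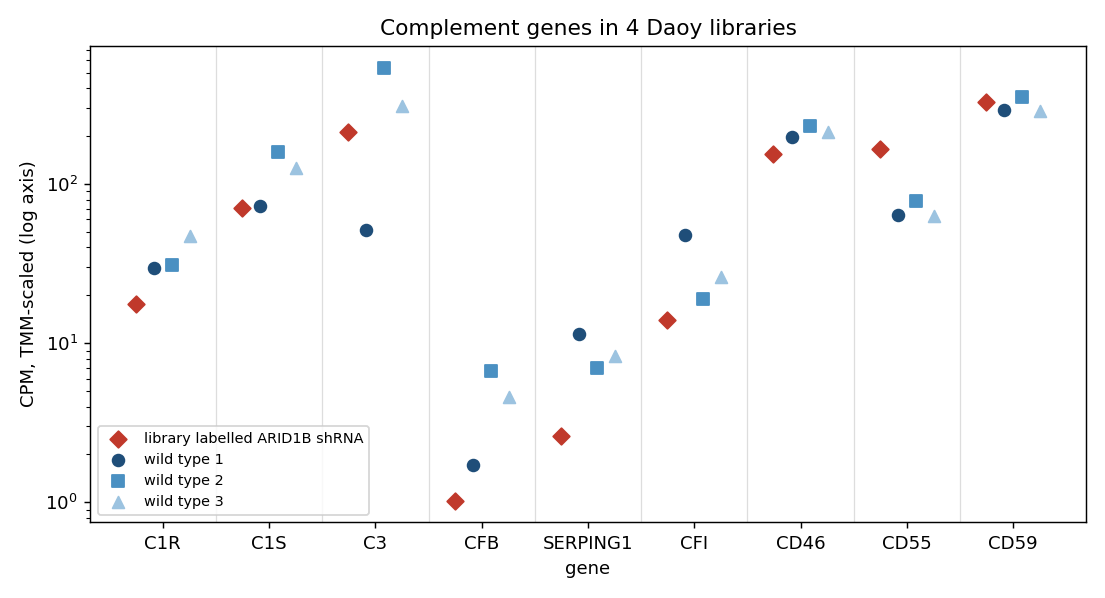
TMM-scaled CPM (log axis) of the 9 complement genes, 1 point per library: the library labelled ARID1B shRNA (diamond) and wild-type libraries 1 (circle), 2 (square) and 3 (triangle). CD55 is the gene with the diamond above all wild-type points, and C3 spans 51.5 to 540 CPM within wild type.

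CD55, known as decay-accelerating factor, was the member that rose. CD55 (ENSG00000196352.9, chromosome 1) had 167 CPM in the library labelled ARID1B shRNA (1460 counts, exact 95% Poisson interval 158 to 175 CPM, counting error only), against 63.9, 78.0 and 63.1 CPM in wild type. The wild-type values lay within 1.24-fold of each other and the shRNA value lay above all of them. It was 2.44-fold higher (log2 fold change 1.29, SE 0.19, edgeR adjusted p = 0.03065). CD55 was 1 of 9 members called higher, where 3.65% of all tested genes were. After removal of the GC and length trend of each library, the log2 fold change was 1.51 (SE 0.13, edgeR adjusted p = 0.0138), where 1.93% of all genes were called higher. The call ended without wild-type library 3 (log2 fold change 1.23, edgeR adjusted p = 0.0737; 2.2% of all genes called higher). It held without library 1 (0.0171; 5.66%) and without library 2 (0.046; 1.09%). CD55 also passed with DESeq2 and limma-voom, where 7.85% and 4.25% of all genes were called higher, with RLE and upper-quartile scaling (4.22% and 3.25%), with no filter and with a mean count of 50 or more (7.4% and 3.8%), and with no robust shrinkage and the later edgeR method (3.71% and 4.08%).

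The other membrane regulators did not pass. CD59 (ENSG00000085063.10, chromosome 11), the pore inhibitor, had 326 CPM in the library labelled ARID1B shRNA, against 294, 353 and 288 CPM in wild type, inside the wild-type range (log2 fold change 0.07, SE 0.19, edgeR adjusted p = 0.848). Under upper-quartile scaling its direction turned, to -0.05. CD46 (ENSG00000117335.14, chromosome 1) had 155 CPM, against 197, 232 and 211 CPM in wild type. It lay below all wild-type libraries, by 0.46 on the log2 scale (SE 0.18, edgeR adjusted p = 0.178), and by 0.20 with the trend removed.

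Ratios within a library do not depend on its scaling, and both CD55 ratios were higher in the library labelled ARID1B shRNA. CD55 over CD59 in CPM was 0.510 in the library labelled ARID1B shRNA, against 0.217, 0.221 and 0.220 in wild type. For CD55 over CD46 the ratio was 1.07 there, against 0.324, 0.336 and 0.299. Per kilobase of the longest transcript, CD55 made up 47.9% of the summed level of the 3 membrane regulators in the library labelled ARID1B shRNA. Its share was 25.7% ± 0.499 (SD, n = 3) in wild type, and both shares depend on the lengths taken. The summed level was 120.2 CPM per kb in the library labelled ARID1B shRNA, against 85.8, 103 and 86.5 CPM per kb in wild type. Such ratios show unequal change of these mRNAs and do not show which of them stayed the same.

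**Figure D2:**
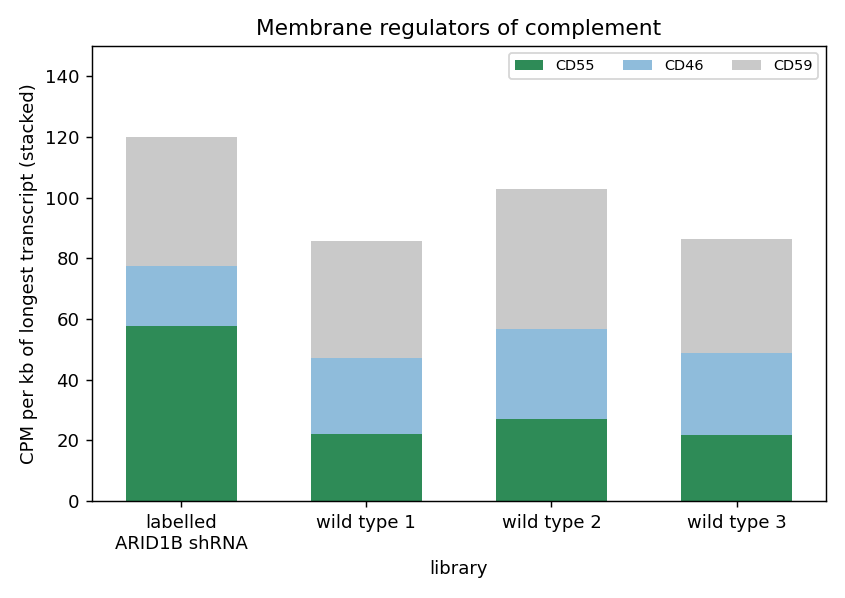
Stacked CPM per kb of the longest transcript for CD55, CD46 and CD59 in each library. The CD55 share is 47.9% in the library labelled ARID1B shRNA, and its segment there is 57.6 CPM per kb against 21.8 to 27.0 in the wild-type libraries.

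None of the 9 members was called lower by edgeR, where 0.834% of all genes were. At an unadjusted p below 0.05, 3 members were lower (C1R, SERPING1 and CD46), against 9.79% of all genes, and 1 was higher (CD55), against 15.6%. DESeq2 called 1 member lower, SERPING1 (adjusted p = 0.0295), where it called 2.58% of all genes, and limma-voom called 0 of 9, against 0.558%. With the trend removed edgeR called 0 of 9 lower, against 1.19% of all genes, and without wild-type library 2 or 3 it called 0, against 0.2% and 0.141%. With no filter on low counts it called 5, against 3.1%. In all, 621 genes were called higher and 142 lower, and 329 and 203 with the trend removed. By position alone, 6 of 9 members lay below every wild-type library (CFI, CFB, C1R, C1S, SERPING1 and CD46), as did 37.9% of all genes. CD55 lay above, as did 35.4% of all genes, and C3 and CD59 lay inside. The median log2 fold change was -0.76 over the 9 members and -0.05 over all tested genes. In bulk RNA, fewer cells that make a transcript and less of it per cell cannot be told apart.

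SERPING1 (ENSG00000149131.11, chromosome 11), the inhibitor of C1R and C1S, had 2.62 CPM in the library labelled ARID1B shRNA (23 counts, 95% interval 1.66 to 3.94 CPM), against 11.4, 6.96 and 8.27 CPM in wild type. The shRNA interval lay below the lowest wild-type value. The log2 fold change was -1.75 (SE 0.45, edgeR adjusted p = 0.0859) and -2.19 with the trend removed (SE 0.43, edgeR adjusted p = 0.0579). CFI (ENSG00000205403.8, chromosome 4), the protease that cuts C3b, had 13.9 CPM, against 47.7, 19.0 and 25.9 CPM in wild type. Wild-type library 1 was highest, and the log2 fold change was -1.15 with all libraries (SE 0.58, edgeR adjusted p = 0.280); leaving that library out gave -0.69.

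Both C1 proteases, whose genes neighbour each other on chromosome 12, lay low in the library labelled ARID1B shRNA. C1R (ENSG00000159403.11) had 17.6 CPM there, against 29.9, 31.2 and 46.9 CPM in wild type (log2 fold change -1.03, SE 0.34, edgeR adjusted p = 0.141). With the trend removed its log2 fold change was -1.32 (edgeR adjusted p = 0.0593). C1S (ENSG00000182326.10) had 70.5 CPM (95% interval 65.0 to 76.3 CPM), against 73.2, 159 and 125 CPM in wild type (log2 fold change -0.76, SE 0.45, edgeR adjusted p = 0.348). The interval reaches wild-type library 1, so C1S was not distinct from that library at this depth. C1S exceeded C1R per kilobase by 4.57-fold in the library labelled ARID1B shRNA, against 2.79-fold, 5.81-fold and 3.05-fold in wild type. In the annotation, C1R shares 11.4% of its exonic bases with its neighbour C1RL, and reads there are uncertain.

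CFB (ENSG00000243649.4, chromosome 6) was scarce in all libraries. It had 1.03 CPM in the library labelled ARID1B shRNA (9 counts, 95% interval 0.469 to 1.95 CPM), against 1.71, 6.65 and 4.62 CPM in wild type. That interval reaches wild-type library 1. The log2 fold change was -2.07 (SE 0.93, edgeR adjusted p = 0.240). Leaving out wild-type library 1 gave -2.44, which passed (edgeR adjusted p = 0.0295; 1.76% of all genes were called lower there). A neighbouring annotated gene covers 45.0% of the exonic bases of CFB and had 0 counts in every library, so the share of reads left unassigned there is unknown.

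**Figure D3:**
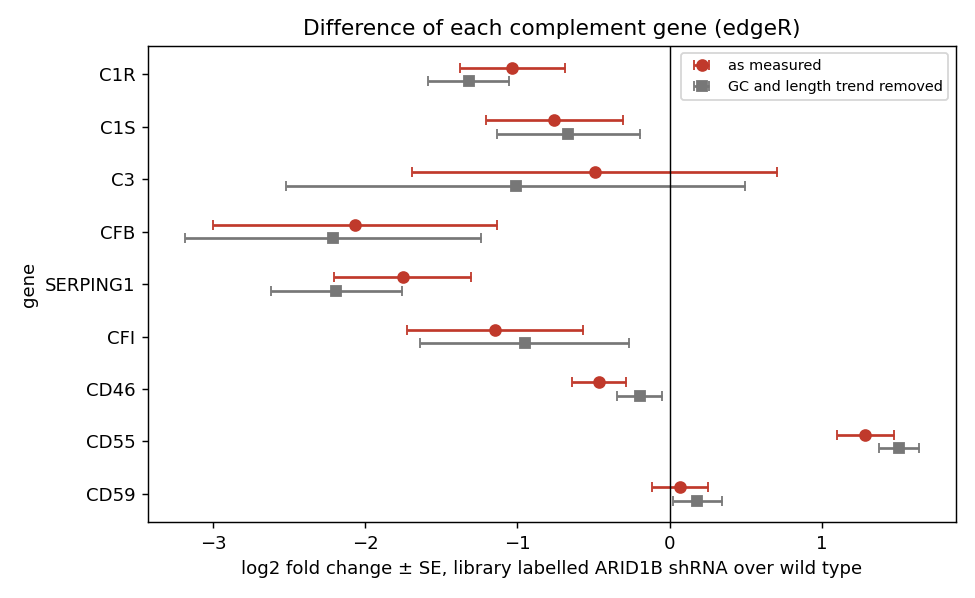
Log2 fold change ± SE (edgeR) of each complement gene, the library labelled ARID1B shRNA over the 3 wild-type libraries, as measured (circles) and with each library's GC and length trend removed (squares). CD55 lies at 1.29 and 1.51, and C3 has the widest error, 1.20 as measured.

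C3, the central component, did not pass, and wild type itself was widely spread. C3 (ENSG00000125730.12, chromosome 19) had 213 CPM in the library labelled ARID1B shRNA, against 51.5, 540 and 309 CPM in wild type. The shRNA value lay inside a wild-type range that spanned 10.5-fold. Its log2 fold change was -0.49 (SE 1.20, edgeR adjusted p = 0.827). Leaving out wild-type library 2 turned it to 0.24. Among 9812 tested genes with a mean wild-type level of at least 10 CPM, 0.275% spanned 10-fold or more. The coefficient of variation of C3 in wild type was 81.4%, and 0.438% of those genes had one as high.

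The remaining members divided by their wild-type spread. Coefficients of variation were 57.4% for CFB (mean 4.33 CPM), 48.4% for CFI and 36.3% for C1S. The median was 16.8% over all tested genes, low-count genes included. Of tested genes with a mean of at least 10 CPM, 3.08% varied as much as CFI and 6.86% as much as C1S. C1R and SERPING1 had 26.3% and 25.8%. The membrane regulators were steadier, at 8.10% for CD46, 11.5% for CD59 and 12.3% for CD55, and the median over genes of at least 10 CPM was 12.0%.

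Wild-type libraries 1 and 2 differed in opposite directions between complement genes. C3, CFB and C1S were lowest in library 1 and highest in library 2, by 10.5-fold, 3.89-fold and 2.17-fold. CFI and SERPING1 were highest in library 1 and lowest in library 2, where they stood at 0.399 and 0.610 of their level in library 1. Cell population and technical differences between these libraries cannot be told apart from the labels. The receptor for the C3 cleavage product C3a, C3AR1, had 1.94 CPM in the library labelled ARID1B shRNA, against 2.72, 10.4 and 5.08 CPM in wild type, with its lowest and highest wild-type values in the same libraries as C3.

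The 3 protein-coding genes whose profile over the 4 libraries lay closest to that of C3 were SOD2, BIRC3 and CXCL10. The measure was Euclidean distance of centred log2 CPM among 10091 genes, 0.34, 0.38 and 0.43 for these genes. SOD2, the mitochondrial superoxide dismutase, had 1502 CPM in the library labelled ARID1B shRNA, against 322, 4609 and 2362 CPM in wild type. BIRC3, an inhibitor of apoptosis, had 89.9 CPM there, against 15.8, 219 and 134 CPM. The chemokine CXCL10 had 8.44 CPM there, against 1.40, 21.6 and 16.4 CPM. As with C3, wild-type library 1 was lowest and library 2 highest for each. Their choice by closeness to C3 over these same libraries brings that likeness about, so it is no separate result. C1S ranked 204 by closeness to C3, and CFI ranked 9969, near the far end. With 4 libraries such closeness is a description only.

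**Figure D4:**
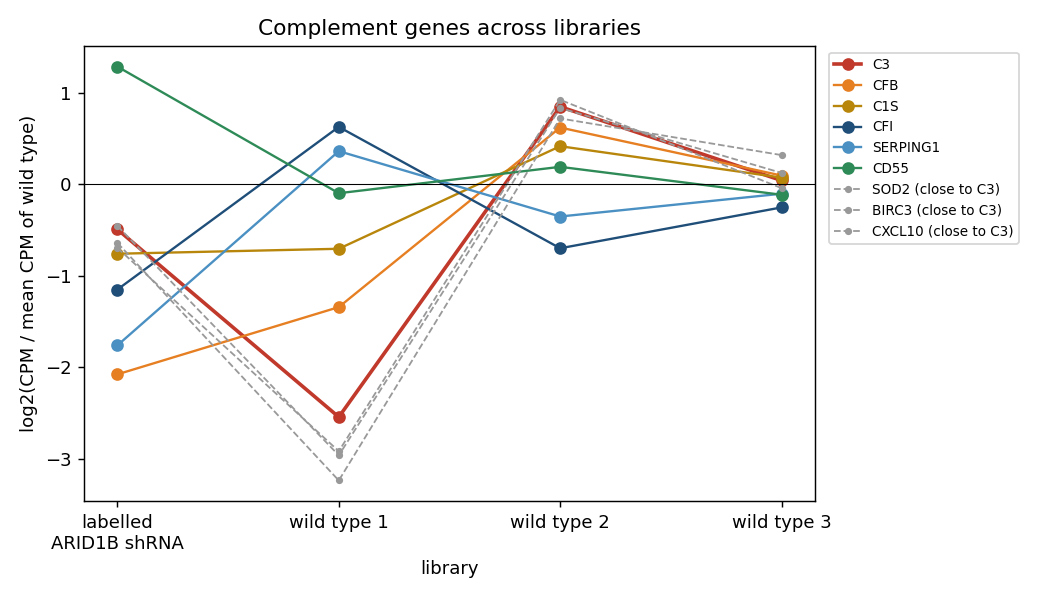
Log2 of CPM over the mean wild-type CPM, per library, for 6 complement genes (solid) and the 3 genes closest to C3 (dashed, grey). Lines join the points of 1 gene and stand for no order of libraries. Among the wild-type libraries, C3, CFB and C1S are lowest in library 1, and CFI and SERPING1 are highest there. In the library labelled ARID1B shRNA, CD55 peaks, and CFB, C1S, CFI and SERPING1 lie below their wild-type values.

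Beyond the 9 genes, much of the complement system was at or near 0 counts in Daoy. Of 50 other complement genes 14 had 0 counts in every library, among them C1QA, C1QB and C1QC, the recognition subunits of C1, and C6 and C8B of the pore. A count of 0 allows up to 0.342 CPM in the library labelled ARID1B shRNA and 0.195 to 0.233 CPM in wild type, taking 3 counts as the limit. Only 17 of the 50 passed the filter, of which 1 rose and 2 fell, where 3.65% and 0.834% of all tested genes did. Their median log2 fold change was -0.48, against -0.05 over all tested genes. C4A and C4B are near-identical copies whose reads the counting can split, and neither exceeded 6 counts.

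Both genes that fell were regulators or relatives of the 9. SUSD4, a membrane inhibitor of complement, had 12.2 CPM in the library labelled ARID1B shRNA, against 43.4, 38.9 and 40.8 CPM in wild type (log2 fold change -1.75, SE 0.23, edgeR adjusted p = 0.0273). All 3 wild-type values lay within a narrow band above it. The call ended without wild-type library 2 (0.0513) or 3 (0.0537). C1RL, a protease related to C1R, had 20.8 CPM there, against 47.6, 44.8 and 46.5 CPM in wild type (log2 fold change of -1.16, SE 0.21, edgeR adjusted p = 0.0425). Its call ended without wild-type library 1 (0.0518), 2 (0.0697) or 3 (0.0871), and with limma-voom (adjusted p = 0.051). After trend removal SUSD4 and C1RL passed (edgeR adjusted p = 0.0163 for SUSD4, 0.0278 for C1RL).

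C5AR1, the receptor of the inflammatory fragment C5a, was the gene that rose. It reached 7.53 CPM, from 66 counts, in the library labelled ARID1B shRNA, against 1, 6 and 10 counts in wild-type libraries 1, 2 and 3, at most 0.651 CPM. The shRNA interval of 5.82 to 9.58 CPM lay above each of them (log2 fold change 4.18, SE 0.67, edgeR adjusted p = 0.036). Without wild-type library 2 or 3 the edgeR adjusted p was 0.0817 and 0.075. C5, the source of C5a, had 4.22 CPM, against 6.52, 5.02 and 3.38 CPM in wild type, inside the wild-type range.

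Of the other soluble regulators, CLU (clusterin), which binds the forming pore, had 11.4 CPM in the library labelled ARID1B shRNA, against 28.0, 40.2 and 44.0 CPM in wild type (log2 fold change -1.71, SE 0.35, edgeR adjusted p = 0.0551). With the trend removed CLU passed (edgeR adjusted p = 0.0476). It was called under 5 of 12 alternatives in all, and was not called with limma-voom or without wild-type library 2 or 3. C1QBP, a mitochondrial protein that can bind C1q, was the most abundant of the 50 and had 231 CPM, against 234, 249 and 217 CPM.

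CD55 and CD59 are held on the cell surface by a glycosylphosphatidylinositol (GPI) anchor. Of 24 tested genes that build or attach it, 1 rose and 0 fell by edgeR, where 3.65% and 0.834% of all tested genes did. At an unadjusted p below 0.05, 2 were higher and 3 lower, against 15.6% and 9.79% of all tested genes. Their median log2 fold change was -0.03, against -0.05 over all tested genes. DESeq2 called 2 higher and 1 lower, against 7.85% and 2.58% of all tested genes, and limma-voom called 1 and 0, against 4.25% and 0.558%. PIGQ, a subunit of the enzyme that starts the anchor, had 26.7 CPM in the library labelled ARID1B shRNA, against 6.05, 3.63 and 7.49 CPM in wild type (log2 fold change 2.22, edgeR adjusted p = 0.0424). That call ended with the trend removed (log2 fold change 0.32, edgeR adjusted p = 0.454), and also on leaving out library 2 (0.0533) or 3 (0.0623) of wild type. PIGT, PIGS and PIGK of the transamidase that attaches the anchor had 120.4, 83.8 and 100.5 CPM there, against wild-type means of 160.1 ± 17.7, 129.6 ± 7.62 and 126 ± 7.78 CPM (SD, n = 3), and none of them passed. Its subunits GPAA1 and PIGU lay the other way, and neither passed. GPAA1 had 91.0 CPM there against 27.1, 19.0 and 44.5 CPM in wild type, and PIGU 24.0 CPM against 20.8, 21.2 and 22.8 CPM. With the trend removed, the log2 fold change of GPAA1 was 0.21.

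Of 14 cytokine receptors and factors known to induce complement genes, 2 rose and 1 fell, where 3.65% and 0.834% of all tested genes did. Their median log2 fold change was 0.11, against -0.05 over all tested genes. CEBPB, a factor of the acute-phase response, had 158 CPM in the library labelled ARID1B shRNA, against 13.8, 31.8 and 26.1 CPM in wild type (log2 fold change 2.73, edgeR adjusted p = 0.036). RELA, an NF-kB subunit, had 139 CPM there, against 54.4, 60.1 and 68.1 CPM in wild type (log2 fold change 1.19, edgeR adjusted p = 0.034). The calls of CEBPB and RELA ended with the trend removed, where their log2 fold changes were 0.87 and 0.74 (edgeR adjusted p = 0.489 and 0.066). They ended as well without wild-type library 2 (0.0581 and 0.0657) or 3 (0.123 and 0.0586). The interferon-gamma and interleukin-6 signalling genes JAK1 and IL6ST had 226 and 489 CPM there, against wild-type means of 354 ± 69.3 and 265 ± 145 CPM (SD, n = 3), and neither passed with all libraries. Without wild-type library 2, IL6ST was called higher (log2 fold change 1.42, edgeR adjusted p = 0.0483).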

How the data were processed

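Per the labels, libraries were made from poly(A) RNA and read as 100-nucleotide single reads. The tools named per the submitters' processing notes are HISAT2, HTSeq, bcl2fastq and DESeq2, with build GRCh37 (hg19). For the versions, the strand setting and the annotation: not given in the sources used here. The deposited values are raw read counts for each gene, without normalization. At the end of every file, 5 lines of non-gene totals entered neither library sizes nor tests. Reads outside genes were counted as a share of gene-assigned, ambiguous and outside-gene reads together. They were 5.27% in the library labelled ARID1B shRNA and 7.07% to 7.65% in wild type. As a share of gene-assigned and ambiguous reads, ambiguous reads were 7.12% in the library labelled ARID1B shRNA and 6.42% to 6.73% in wild type. Identifiers were matched without version to symbols and to GENCODE release 29 (GRCh38), which gave transcript length, GC content and exon overlaps. Promoters came from RefSeq.

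Counts were tested with edgeR 4.0.16 in R 4.3.3: filterByExpr (minimum count 10, minimum total 15), TMM, glmQLFit with robust shrinkage and glmQLFTest, with Benjamini-Hochberg adjustment over all 17024 tested genes and a threshold of 0.05. The fit has 2 residual degrees of freedom and assumes that the lone shRNA library varies as wild type does. The SE is the absolute log2 fold change over the square root of F. Poisson intervals are exact, at 95%, and with the limit of 3 counts cover counting error only. Results were recomputed with DESeq2 1.42.0, limma-voom (limma 3.58.1), upper-quartile or RLE scaling, other filters, no robust shrinkage, a loess trend on GC content and length removed (span 0.3, fitted on genes averaging 20 counts or more), and leaving out each wild-type library. The later quasi-likelihood method of edgeR was added after seeing the data. The procedure was also run on simulated counts. Those counts had no trend on GC content and length and no difference between kinds of control, so they do not test either effect.

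The members and lists were chosen with earlier results of these data known. Of the 133 list entries, 132 matched an identifier. Genes outside the 9 were named by a rule: in each list those past the threshold, at most 6, and the 3 tested genes with the highest mean CPM. Some genes that this rule names are not reported here. The genes at 0 counts, C4A, C4B, C3AR1, C5, CLU, SOX2, OTX2, MYCN, GPAA1, PIGU and the ratios were chosen after their values were seen.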

Additional observations from a re-analysis of the deposited data

How the results depend on the processing

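Of the 9 members, CD46 kept its direction and its side of the threshold under all 12 alternatives, and CD55 kept its direction under all 12 and its call under 11. With no filter on low counts, 5 members were called lower, with log2 fold changes of -1.17 for CFI, -2.09 for CFB, -1.06 for C1R, -0.78 for C1S and -1.78 for SERPING1; the other complement genes then gave 2 higher and 5 lower, the GPI anchor genes 2 and 2, the cytokine receptors and factors 4 and 3, and all genes 2274 and 952, and the cause was not tested. DESeq2 called 1 member lower (SERPING1, -1.73), 2 GPI anchor genes higher and 1 lower, and 1336 genes higher and 439 lower. With limma-voom C3 turned to 0.052 and 1 other complement gene was lower; keeping only genes that average 50 counts or more, 0 other complement genes were higher, and C5AR1 and CFB could not be fitted. Removing the GC and length trend left 329 genes higher and 203 lower, against 621 and 142, with 0 GPI anchor genes higher and 0 cytokine receptors and factors either way, and it turned CFD to -0.068, CFP to -0.078, C5 to 0.0069, C1QBP to 0.027 and ARID1B to -0.18. C1QBP also turned to 0.0106 with RLE scaling and to 0.0106 with DESeq2. Upper-quartile scaling moved the median log2 fold change of all genes to -0.17, against -0.05, and turned CD59 to -0.053.

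Leaving out each wild-type library in turn gave log2 fold changes of -0.99 to 0.24 for C3, -2.44 to -1.63 for CFB, 1.23 to 1.39 for CD55, -0.37 to 1.49 for CFP, -0.45 to 0.011 for C5 and -0.072 to 0.031 for C1QBP. Members called ranged over 0 to 1 higher and 0 to 1 lower, other complement genes over 0 to 1 and 0 to 2, GPI anchor genes over 0 to 1 higher, cytokine receptors and factors over 0 to 3 and 0 to 1, and all genes over 186 to 963 and 24 to 299. Fewer libraries leave 1 residual degree of freedom. With CPM by library total the coefficient of variation in wild type was 5.96% for CD46, against 8.10%, and 80.3% for C3, against 81.4%. No paired analysis was possible because the shRNA arm has 1 library, which also carries no replicate number in the labels. Depth limits CFB, with 9 counts, and SERPING1, with 23, in the library labelled ARID1B shRNA.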
